A study of Drosophila melanogaster with 4 samples.

Results

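Cytoplasmic ribosomal proteins are the protein parts of the ribosome that translates nuclear messages. They were taken here as every probe set whose gene symbol begins with RpL, RpS or RpLP and a number. The rule found 37 probe sets, 1 for each of 37 genes, among the 14010 probe sets of the array. By their symbols 22 belong to the large subunit and 15 to the small subunit. Another 55 RefSeq genes fit the same name pattern and are not analysed here, so each subunit is covered in part. Cultured embryonic cells of the fly Drosophila melanogaster gave 4 samples, and the total RNA of each was measured on 1 array. Each sample is labelled as a negative fraction of fluorescence-activated sorting, meaning the cells that did not carry the marker of the sorted neurons. The Cha-negative fraction (a and b) was taken from cells cultured for 3 to 5 days, with GFP in cholinergic neurons. The Gad1-negative fraction (a and b) was taken from a sort of neurons marked with dsRed1, a red fluorescent protein fused directly to a 2.1 kb promoter of the glutamic acid decarboxylase gene; no culture age is given for them. No genotype or driver line is named, and nothing says whether a and b stem from separate cultures, so their spread may be purely technical and p-values measure that spread only. Where 2 values are given for a fraction, the first is sample a and the second sample b.

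A eukaryotic ribosome has a small subunit, which binds the message and decodes it, and a large subunit, which joins amino acids and releases the chain through an exit tunnel. The proteins are needed in equal numbers, except for the acidic stalk proteins, and their genes are usually transcribed in step with growth. In Drosophila, losing a copy of many of these genes gives the Minute phenotype of slow development and short bristles. Several genes have a further copy used mainly in the germ line, and some relatives with "-like" symbols resemble assembly factors known from yeast. The 37 genes were therefore described as 27 principal genes, 16 of the large and 11 of the small subunit, and 10 copies and relatives. That division follows general knowledge of the genes and was made with their values known.

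The arrays had been scaled alike by the authors, and the values are intensities on a linear scale. The median over all probe sets was 248 and 219 for Cha-negative and 213 and 181 for Gad1-negative, lower in b in both fractions. The share of probe sets under an intensity of 44.9 was 15.8% and 19.0% against 20.8% and 24.3%, higher in b in both. RNA quality was read as signal at the 3' end over signal at the 5' end of control genes, with the floor in place of 5' signals under it. For GAPDH it was at least 144 and then 185 for Cha-negative, but 23.9 and 38.04 for Gad1-negative. For actin it was 59.4 and 124 against 82.1 and 106, higher in b in both fractions, and for 18S ribosomal RNA 59.2 and 17.3 against 18.0 and 18.8, with only Cha-negative a apart. For eIF-4a it was at least 321 and at least 935 against 230 and 77.1, lower in b in Gad1-negative. Controls added for hybridisation had a geometric mean of 4441 and 7164 for Cha-negative and of 4005 and 1550 for Gad1-negative, which stood higher in b in one fraction and lower in b in the other. Of the markers of the sorted cells, Gad1 lay under the floor of 44.9 (the 20th percentile of all values) in all 4 samples, but ChAT, the acetylcholine-synthesis enzyme of cholinergic neurons, read 2000.0 and 594.5 for Cha-negative against 590.1 and 781.1 for Gad1-negative. Its highest level was thus in Cha-negative a, a library labelled as lacking the marked cholinergic cells, and the other 3 libraries lay close together. ChT, the other cholinergic marker, read 764.1 and 520.4 against 187.4 and 465.4, highest in the Cha-negative samples. VGAT, the other GABAergic marker, read 310.5 and 504.3 against 431.7 and 436.2, above the floor in all 4 samples. In such bulk samples fewer cells of a type and less RNA per cell cannot be told apart.

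Principal ribosomal protein genes mostly read higher in sample b than in sample a of the same fraction. The 37 probe sets together held 3.68% of the summed intensity of the array in Cha-negative a and 6.58% in b. In Gad1-negative they held 3.30% in a and 6.34% in b. Both b samples thus stood near each other and above both a samples. The members' summed intensity was 2.01 times as high in b as in a in Cha-negative, and 2.17 times in Gad1-negative. Of the 27 principal genes, 25 read higher in b than in a in both fractions, where 27.2% of the 6991 tested genes did so. In 23 of them both b samples exceeded both a samples, against 18.7% of tested genes.

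**Figure D1:**
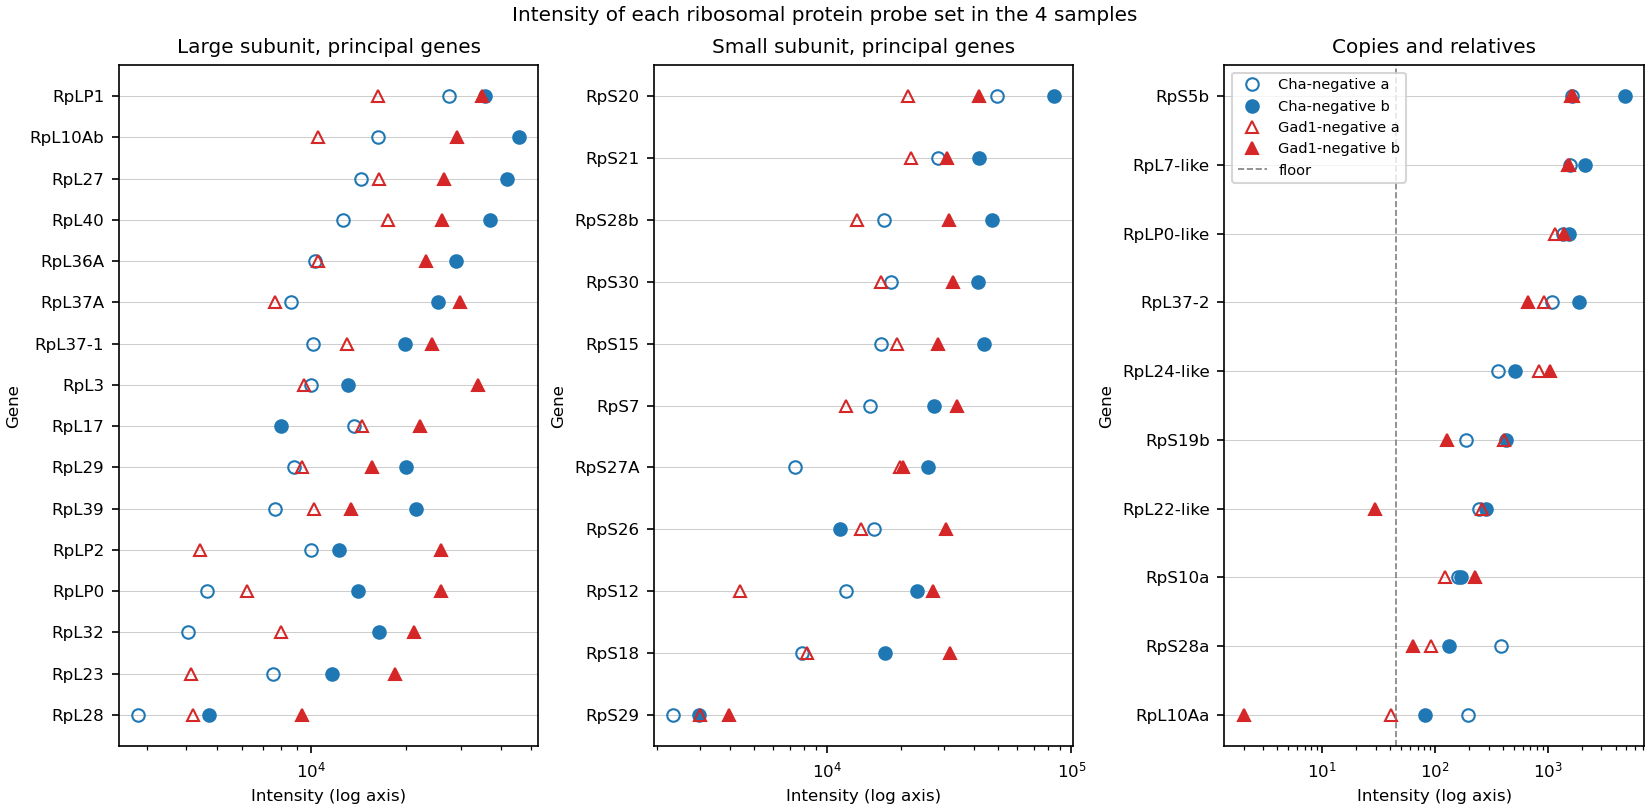
Intensity (log axis) of the 37 ribosomal protein probe sets, one gene per line, in Cha-negative (circles) and Gad1-negative (triangles) samples, with open symbols for a and filled symbols for b. Among the principal genes the filled symbols lie to the right of the open ones in most lines, and among copies and relatives they do so in 8 of 10 lines for Cha-negative and 4 of 10 for Gad1-negative; the dashed line is the floor of 44.9.

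The median gap between b and a over the principal genes was 1.13 on the log2 scale in Cha-negative and 1.14 in Gad1-negative, a ratio of 2.19 and 2.21. Over all tested genes the median gap was -0.00 and -0.16. Any gap upward was seen in 33 of the 37 members in Cha-negative (49.6% of tested genes) and in 31 in Gad1-negative (44.2%). Of the 37 members, 16 read more than 2-fold higher in b in Cha-negative, where 15.1% of tested genes did, and 15 in Gad1-negative, where 15.0% did; 7 did so in both (4.92% of tested genes). A gap of more than 2-fold in the other direction occurred in 2 members in Cha-negative and 2 in Gad1-negative, all 4 of them among copies and relatives; 14.4% and 21.1% of tested genes had one. Each gap sets 1 array against 1 array and so has no test. The gap also varied with brightness. The 344 other tested genes with a mean at or above that of RpS29, the lowest of the principal genes, had a median gap of 0.34 in Cha-negative and 0.23 in Gad1-negative, and 41.9% of them stood higher in b in both fractions. In 29.4% of these bright genes both b samples exceeded both a samples. Their median log2 level was 12.19, against 13.95 for the principal genes, so as a set they were dimmer. After cyclic loess, which removes trends with intensity, the median gap over all 37 members was 0.52 and 0.38, compared with 0.86 and 0.89 before. Of 8 lists of cell type markers, only the gut list (2 of 2 genes measured) had a higher summed intensity in b in both fractions, 830.7 and 2636.5 for Cha-negative and 501.5 and 506.9 for Gad1-negative, where Mal-A1 of that list was lower in b. The haemocyte list (4 of 4) was lower in b in both, at 1233 and 917 against 1565 and 461. Within it Pxn rose in Cha-negative, from 80.9 to 463.7. Neuron markers (4 of 6 measured) summed to 1176 and 1142 against 626 and 1603, and muscle markers (3 of 4) to 2311 and 1305 against 4687 and 8543. Of the neuron genes, elav was higher in b in both fractions (165.2 and 335.0 against 67.2 and 909.3). Appl was lower in b in both (842.1 and 701.0 against 421.6 and 344.4), and nSyb and brp had values under the floor. Of the glial list, Gs2 was higher and repo lower in b in both fractions. The part of array processing, RNA quality and cell makeup in the gap was not tested.

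**Figure D2:**
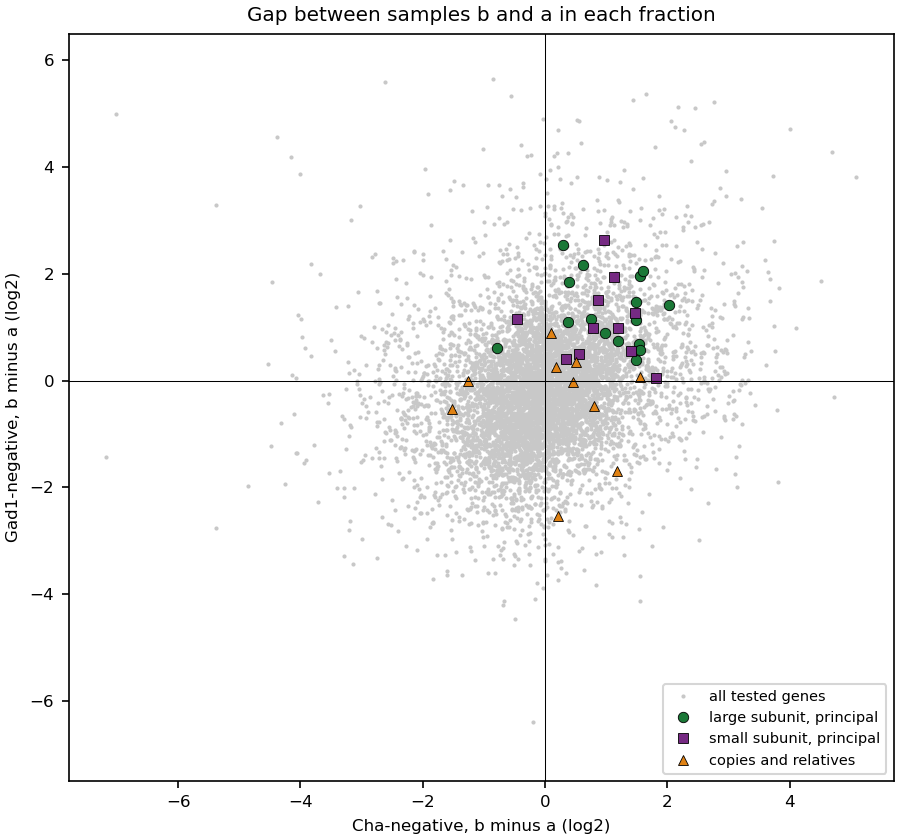
Difference between samples b and a on the log2 scale, in Cha-negative (horizontal) and Gad1-negative (vertical), for all 6991 tested genes (grey) and the ribosomal protein genes by class. Where b is higher in both fractions lie 25 of the 27 principal genes and 4 of the 10 copies and relatives.

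The stalk of the large subunit, which recruits translation factors that use GTP, shared this pattern with unequal sizes. RpLP0, the base of the stalk, read 4633.7 and 14073.8 for Cha-negative and 6221.1 and 25769.6 for Gad1-negative. Its b samples were 3.04 and 4.14 times its a samples, among the 5 largest gaps of each fraction. RpLP1, an acidic stalk protein, read 27511.3 and 35631.9 against 16330.4 and 35007.8. RpLP2, its partner, read 9997.8 and 12210.6 against 4432.9 and 25762.7. Its gap was 1.22-fold in Cha-negative and 5.81-fold in Gad1-negative, so Gad1-negative a and b lay outside the range of the Cha-negative samples on opposite sides. The stalk genes differed between fractions by 0.65 ± 0.89 (RpLP0), -0.39 ± 0.74 (RpLP1) and -0.05 ± 0.88 (RpLP2), in log2 units, signed so that positive is higher in Gad1-negative, each with its standard error (SE), n = 2 per fraction.

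Genes of the core and the exit tunnel did not all share one size of gap. RpL3, close to the peptidyl transferase centre, read 9988.7 and 13053.3 for Cha-negative and 9472.4 and 34005.5 for Gad1-negative. Gad1-negative b stood alone at the top. RpL17, which lines the exit tunnel, read 13710.1 and 7993.7 against 14482.7 and 22112.1, and was 1 of the 2 principal genes that read lower in b than in a in Cha-negative. The other was RpS26, at the message exit channel of the small subunit, with 15561.6 and 11317 against 13699.1 and 30553.5. In both genes Gad1-negative b was the highest sample. RpL39, a small exit tunnel protein, read 7680.7 and 21524.2 against 10201.7 and 13318.2, with both b samples above both a samples. RpL32, often used as a reference transcript in fly work, had the largest gap in Cha-negative, at 4052.1 and 16456.1 (4.06-fold), and read 7982.4 and 21210.9 in Gad1-negative (2.66-fold). RpL23, at the face where the subunits meet, read 7539.2 and 11607.5 against 4125.2 and 18508.1, a 4.49-fold gap in Gad1-negative. RpL37A read 8625.2 and 25352.8 against 7628.6 and 29780.1, with gaps of 2.94-fold and 3.90-fold.

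Both genes that encode a ribosomal protein fused to ubiquitin were measured. RpL40 read 12613.5 and 37067.9 in Cha-negative and 17491.8 and 26125 in Gad1-negative. RpS27A read 7398.2 and 25918 against 19796 and 20405.9. For RpS27A the gap was 3.50-fold in Cha-negative and 1.03-fold in Gad1-negative, with Cha-negative a as the single low sample. In the small subunit the largest gap of either fraction was that of RpS12, needed in flies for cell competition between Minute and wild-type cells. It read 11947.7 and 23249.4 against 4377.3 and 27074.8, a 6.19-fold gap in Gad1-negative. RpS18, of the small subunit head, read 7846.5 and 17198.5 against 8244.6 and 31744.6, and both b samples were above both a samples. RpS29, also in the head, read 2336.4 and 2972.5 against 2998.5 and 3968, and both Gad1-negative samples lay above both Cha-negative ones. Across the 27 principal genes the gap ranged from 0.583-fold (RpL17) to 4.06-fold in Cha-negative and from 1.03-fold (RpS27A) to 6.19-fold in Gad1-negative. RpLP0 and RpL37A had large gaps in both fractions. Over these 27 genes, which share the same 4 arrays, Pearson's r between both gaps was -0.06 and Spearman's rho -0.07, against 0.25 and 0.28 over the 6991 tested genes.

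The order of the gaps between the subunits depended on which genes were counted, and their difference was not tested. For the 16 principal large-subunit genes the median gap was 1.34 on the log2 scale in Cha-negative and 1.15 in Gad1-negative. For the 11 small-subunit genes it was 0.96 and 0.98. Over all 37 members it was 0.78 and 0.82 for the large and 0.96 and 0.89 for the small subunit. The large-subunit genes among all 37 members held 1.75% and 3.24% of the array total for Cha-negative, and 1.71% and 3.48% for Gad1-negative. The small-subunit genes held 1.93% and 3.33% against 1.59% and 2.86%. Since the sums come from different probes, their order between subunits is not read. Within a subunit the sum in b was 2.09 and 2.30 times that in a for the large subunit, in Cha-negative and Gad1-negative, and 1.94 and 2.03 times for the small one. RpS20 alone contributed 49335.1 and 85122.8 to the small-subunit sums in Cha-negative and 21321.3 and 42010 in Gad1-negative.

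**Figure D3:**
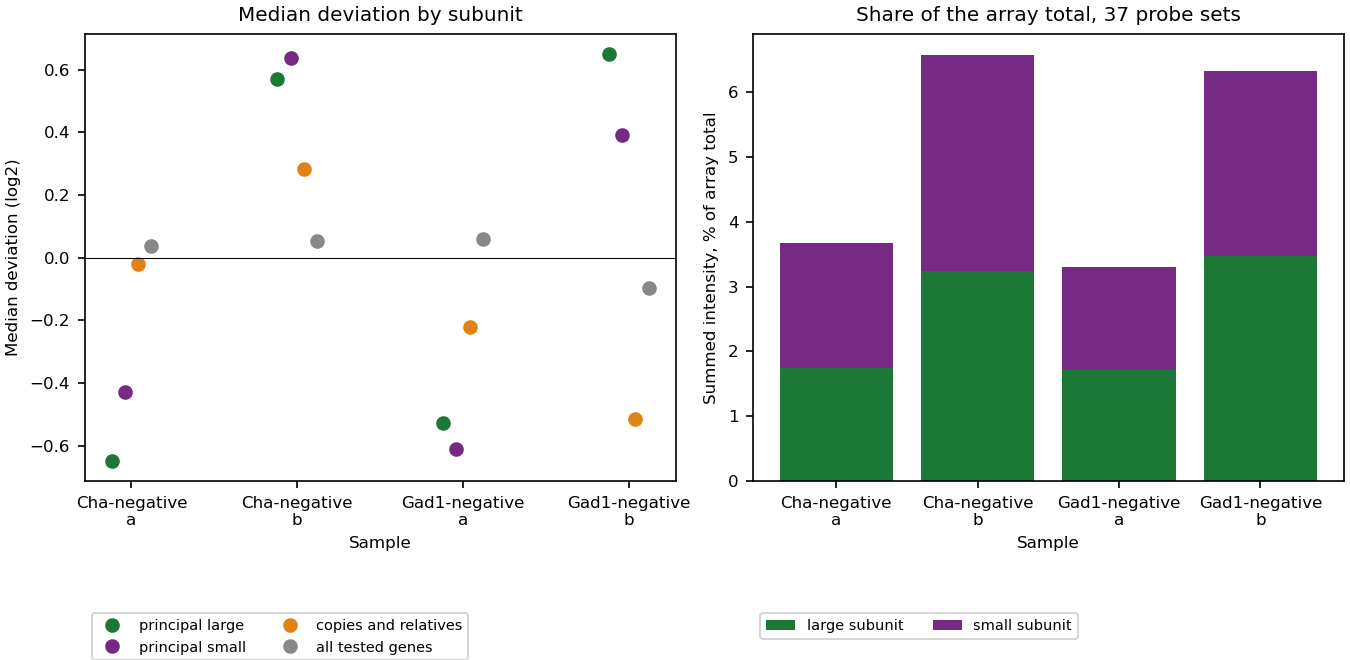
Left, the median deviation of genes from their own mean over the 4 samples (log2) for principal large-subunit, principal small-subunit, copy and relative, and all tested genes. Right, the summed intensity of the 22 large-subunit and 15 small-subunit probe sets as a percent of each array's total. Both panels show the b samples above the a samples for both subunits; bars of different subunits rest on different probes and are not compared.

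The balance between the subunits was measured by setting each gene against its own mean over the 4 samples, because intensities of different probes are not comparable. The median deviation of large-subunit genes minus that of small-subunit genes was -0.13 and -0.21 for Cha-negative, then 0.05 and 0.09 for Gad1-negative. The fractions did not overlap, and their means differed by 0.24, with an SD of 0.05 between the Cha-negative and 0.03 between the Gad1-negative samples (n = 2 each). With principal genes only the difference was 0.31, with a wider SD of 0.11 between the Cha-negative and 0.13 between the Gad1-negative samples. With 2 samples per fraction the smallest two-sided p that an exact permutation test allows is 0.333. The difference depended on scaling: it was 0.24 after cyclic loess and 0.02 after quantile normalization.

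Between the fractions themselves no ribosomal protein gene passed the test. Limma called 0 of the 35 members above the intensity filter, and 0 of 6991 tested genes (0%), at an adjusted p under 0.05. At an unadjusted p under 0.05 there were 0 members, where 4.93% of all tested genes had one. The smallest adjusted p of a member was 0.925. Of all 37 members, 13 read higher and 24 lower in Gad1-negative, with a median difference of -0.14; among tested genes 47.7% read higher and 52.3% lower, with a median of -0.04. The median was -0.12 for the 22 large-subunit genes and -0.24 for the 15 small-subunit genes. After quantile normalization their order was reversed, at -0.16 for the large and -0.04 for the small subunit. The median turned positive without Cha-negative b (0.38 over all members) and without Gad1-negative a (0.27), and with median centring of the arrays (0.10, where all tested genes shifted to 0.20). Within letter a the median difference was -0.04 and within letter b -0.32, each from 1 array against 1. For the 27 principal genes alone the median difference was -0.05, with 0.03 within a and 0.22 within b. Of these genes 11 read higher and 16 lower in Gad1-negative. For the 10 copies and relatives the median was -0.54, with 2 higher and 8 lower. The 95% interval of a member's difference reached a median of 1.81 to either side, a 3.51-fold change, and members ranged in SE from 0.52 to 0.98. The groups did not overlap in 8 of the 37 members, where 34.7% of tested genes did not; 5 were lower in Gad1-negative (20.1% of tested genes) and 3 higher (14.7%). Copies and relatives made up 4 of the 5 lower ones.

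**Figure D4:**
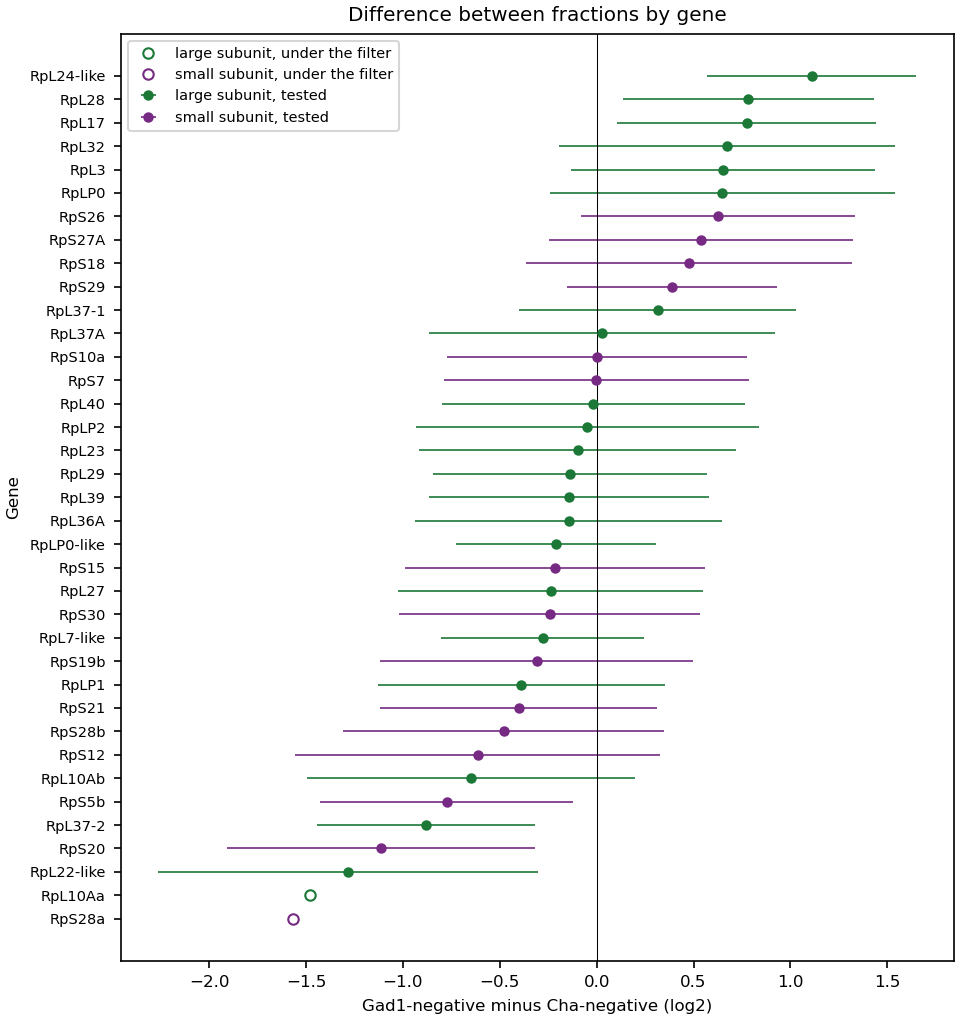
Difference between the fractions, Gad1-negative minus Cha-negative (log2), for each of the 37 genes in order of size, coloured by subunit. Bars are the SE of the fit with 2 samples per fraction, and open circles are the 2 genes under the intensity filter, which have no SE; values run from -1.57 (RpS28a) to 1.11 (RpL24-like).

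Among the principal genes RpS20, a protein of the small subunit head, had the lowest difference. Its 4 values are those given with the subunit sums. Every Gad1-negative sample was under every Cha-negative sample, although b exceeded a in each. The difference was -1.11 ± 0.80 (SE), its 95% interval ran from -2.96 to 0.73, and limma gave an adjusted p = 0.925. With 1 sample left out it ran from -1.60 (without Gad1-negative b) to -0.63 (without Gad1-negative a). Set against the median of the principal genes in the same sample, a scale chosen after the data were seen, RpS20 was lower in Gad1-negative by a log2 difference of -1.24 within a and -1.20 within b. RpL10Ab, of the large subunit's mobile L1 stalk, read 16327.6 and 45854.4 against 10493.6 and 29062.6. Its difference of -0.65 ± 0.85 became 0.10 when Cha-negative b was left out and 0.09 when Gad1-negative a was.

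On the higher side RpL28 read 2803.6 and 4731.7 for Cha-negative and 4210 and 9323.5 for Gad1-negative, with overlapping fractions. Its difference was 0.78 ± 0.65 (95% interval from -0.72 to 2.29), and it ran from 0.21 without Gad1-negative b to 1.36 without Gad1-negative a. RpL17 differed by 0.77 ± 0.67, with both Gad1-negative samples above both Cha-negative ones, and by 0.38 without Cha-negative b. RpL32 differed by 0.67 ± 0.87 and RpL3 by 0.65 ± 0.78. Both turned negative when a sample was left out, RpL32 to -0.34 without Cha-negative a and -0.03 without Gad1-negative b, RpL3 to -0.27 without Gad1-negative b. Relative to the median of the principal genes in the same sample, 14 of the 27 principal genes had the same sign of difference within a and within b.

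The copies and relatives had a smaller median gap than the principal genes in both fractions. It was 0.33 on the log2 scale in Cha-negative and -0.01 in Gad1-negative, against 1.13 and 1.14 for the principal genes. Of the 10 copies and relatives 8 read higher in b in Cha-negative (49.6% of tested genes), 4 in Gad1-negative (44.2%) and 4 in both (27.2%). Their summed intensity in b was 1.67 times that in a for Cha-negative and 0.968 times for Gad1-negative. Such a sum is weighted toward the brightest of them, and no test compared the classes. The copies and relatives were also much dimmer, with a median log2 level of 8.65 against 13.95 for the principal genes. The gap varied with brightness, and the part of brightness in this contrast was not tested. Together the copies and relatives held 0.0725% and 0.108% of the array total for Cha-negative, and 0.0714% and 0.0611% for Gad1-negative. For 3 genes both copies of a pair had a probe set of their own, and near-identical copies can share hybridisation, so the separate values are uncertain. RpL10Aa read 194.4 and 80.9 in Cha-negative and lay under the floor in the whole Gad1-negative fraction, which puts it at least 2.79-fold higher in Cha-negative. RpS28a read 386.4 and 134.2 in Cha-negative against 92.4 and 64.1, lower in b in both fractions, while its partner RpS28b read 17108.2 and 47307.6 against 13174.7 and 31559.6. Both RpL10Aa and RpS28a lay under the intensity filter and were not tested. RpL37-2 read 1089.1 and 1908.8 against 922.6 and 664.2 (-0.88 ± 0.56), and RpL37-1 10143.4 and 19920.3 against 12957.2 and 24143.9 (0.32 ± 0.71). RpL10Ab, RpS28b and RpL37-1 thus stood higher in b in both fractions, and RpL10Aa, RpS28a and RpL37-2 did not.

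Other copies differed from one another in their order of samples. RpL22-like, a testis-enriched relative of RpL22, read 244.8 and 282.3 in Cha-negative against 259.7 and 29.5 in Gad1-negative. Only Gad1-negative b stood apart, under the floor, and without it the difference of -1.28 ± 0.98 became -0.02. RpS19b read 187.3 and 425.8 against 409 and 126.9, opposite in direction between letters. RpS10a read 159.8 and 171.2 against 121.6 and 225.1, a difference of 0.00 ± 0.77.

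The relatives of assembly factors were steadier. RpL24-like, whose yeast counterpart holds the place of a large-subunit protein during assembly, read 365.8 and 517.2 in Cha-negative and 831.9 and 1059.2 in Gad1-negative. Both Gad1-negative samples were above both Cha-negative ones, and the difference of 1.11 ± 0.54 (95% interval from -0.14 to 2.36, unadjusted p = 0.0744 and adjusted p = 0.925 in the limma fit) was the highest of all members. It ran from 0.86 to 1.36 with 1 sample left out. RpL7-like, related to a yeast factor of large-subunit assembly, read 1576.9 and 2160.2 against 1538 and 1507.5 (-0.28 ± 0.52). RpLP0-like, related to a yeast factor that precedes the stalk, read 1370.3 and 1559.8 against 1153.5 and 1382.4 (-0.21 ± 0.52).

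Lists of genes that act with the ribosome were read from the same fit, and 0 of their tested members passed the adjusted threshold. The 10 genes found of the translation elongation and cap-binding list had a median gap of 0.85 in Cha-negative and 0.45 in Gad1-negative. In both fractions 5 of them read higher in b, against 27.2% of tested genes and 41.9% of the 344 bright genes described above. Rack1, a scaffold protein of the small subunit, read 8958.1 and 19897 in Cha-negative and 6585.9 and 25412.7 in Gad1-negative. The helicase eIF4A read 8941.1 and 27406.5 against 10817.1 and 33167.1, 3.07-fold higher in b in each fraction. The elongation factor eEF1gamma read 2272.4 and 5904.2 against 3866.4 and 14184.8 (1.02 ± 0.81 between fractions). By contrast pAbp, the poly(A)-binding protein, read 6619.5 and 32721.2 against 27331.9 and 21851, with Cha-negative a alone low. The other genes named by rule were eEF1alpha2, which differed between fractions by 1.17 ± 0.65, and eEF5 by -0.83 ± 0.67.

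Genes that build ribosomes stood near the background in the count higher in b in both fractions. Of 21 biogenesis genes 7 did so, against 27.2% of tested genes and 21.5% of all genes without the filter. The median gap was -0.31 in Cha-negative and -0.13 in Gad1-negative, against -0.00 and -0.16 over tested genes. In each fraction 5 of the 21 were more than 2-fold lower in b, against 14.4% and 21.1% of tested genes. Tif-IA, which starts transcription by RNA polymerase I, read 2282.3 and 964.7 in Cha-negative and 2653.9 and 799.1 in Gad1-negative, lower in both b samples. The nucleolar RNA methylase gene Fib read 2030.8 and 2036 against 2102.7 and 2896.5, and Nop60B, which makes pseudouridine in ribosomal RNA, read 845 and 327.9 against 534.2 and 170.4. Between fractions Nop17l differed by 1.25 ± 0.89, RIOK1 by 1.08 ± 0.88 and CG4364 by 0.71 ± 0.61. Of the 64 mitochondrial ribosomal proteins, found by name pattern, 38 (59.4%) read higher in b in both fractions, against the same 27.2% and 21.5%, and their median gap was 0.32 in Cha-negative and 0.63 in Gad1-negative. Among them mRpL40 differed between fractions by 2.36 ± 0.82, mRpL11 by -1.69 ± 0.73 and mRpL48 by 1.63 ± 0.74.

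Regulators of ribosome synthesis were mixed. Of 12 growth-control genes 6 (50%) read higher in b in both fractions, against 27.2% of tested genes and 21.5% of all unfiltered genes. Their median gap was 0.06 in Cha-negative and 0.64 in Gad1-negative. Trf2, a TBP-related factor used at ribosomal protein promoters in flies, read 360.9 and 1304.4 in Cha-negative and 321.1 and 1231.5 in Gad1-negative, so its b samples lay well above its a samples. M1BP, a core promoter factor bound at many ribosomal protein genes, read 550.3 and 536.4 against 837.5 and 1455.3 (1.02 ± 0.55 between fractions). S6k, the kinase that phosphorylates RpS6, read 793 and 1186.9 against 259.6 and 1159.3. The transcription factor foxo, which restrains growth, read 473.6 and 367.1 against 115.5 and 124.4, which is -1.80 ± 0.65 between fractions (limma adjusted p = 0.925). The kinase mTor differed by 0.83 ± 0.62. Of the 4 genes found of the list of responses to lost ribosomal proteins, 0 read higher in b in both fractions (27.2% of tested genes). Irbp18, partner of the Minute response factor Xrp1, read 1491.3 and 768.1 against 1036.8 and 657.2, and puc, a phosphatase induced by JNK signalling, read 19166.1 and 9589.6 against 15822.9 and 5068.3. Both stood lower in b in each fraction. In the same list Gadd45 read 930.1 and 1140.9 against 1969.8 and 1762 (0.85 ± 0.52 between fractions).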

How the data were processed

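Each deposited column holds linear intensity from a 1-colour array, 1 number per probe set; the authors' software is not given in the sources used here. The 2%-trimmed means of the 4 columns were equal at 500.1, so each array had been scaled by the authors. Of 14010 probe sets, 12443 named 1 gene, 327 several and 44 were controls; 2 probe sets that name a ribosomal protein gene beside another gene were left out. Symbols were updated through Entrez identifiers, which changed no member. Values under the 20th percentile (44.9) were raised to it before taking log2. Where a gene had several probe sets, that with the highest mean was used. The test covered 6991 of 10844 genes, those averaging at least the 40th percentile of probe sets (an intensity of 133). Fractions were tested using limma 3.58.1 (R 4.3.3) (eBayes with trend, two-sided, Benjamini-Hochberg adjustment over all tested genes), and the code was tested on simulated data. Gaps between b and a, medians and counts have no test. Tables came from pandas 2.3.3 with numpy 2.4.6 under Python 3.11.15, and figures from matplotlib 3.10.9. The members and lists were chosen with earlier results of these data known. Genes were named for the highest and lowest differences and gaps (5 each), fixed roles, paralog pairs, values under the floor and, per list, the 3 smallest p; other named genes were chosen after their values were seen. A gene that this rule names is not reported here. The number of arrays limits the precision, and no depth applies. Alternatives were other scalings, floors, filters, probe set rules and models, and leaving out each sample.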

Additional observations from a re-analysis of the deposited data

How the results depend on the processing

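No alternative gave a ribosomal protein gene, or any gene, an adjusted p under 0.05: the counts stayed at 0 under all 17 alternatives, with 256 to 718 genes at an unadjusted p under 0.05 by limma. The letters a and b are not said to mark a shared batch. With the letter as a replicate block, 0 genes passed and 601 had an unadjusted p under 0.05, against 345 without it; 1 of them was a member, RpS20 (adjusted p = 0.572). Deviations of same-letter samples correlated at r = 0.25 across genes. With median centring the median difference between fractions was 0.10 over all members, 0.13 for the large and 0.0031 for the small subunit. With 1 sample left out it ran from -0.68 to 0.38 over all members, from -0.54 to 0.50 for the large and from -0.80 to 0.28 for the small subunit, lowest without Cha-negative a and highest without Cha-negative b. The large minus small subunit difference was 0.021 after quantile normalization and 0.31 with principal genes only; the cause was not tested. The median gap between b and a stayed positive under every scaling: it ran from 0.47 (quantile) to 1.04 (median centring) in Cha-negative and from 0.35 to 1.12 in Gad1-negative, and members higher in b numbered 29 to 33 and 24 to 33.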
